A study of Homo sapiens with 4 samples.

Results

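The 53 genes described here encode nucleolar ribosome biogenesis factors, the proteins that cut, fold, modify and package ribosomal RNA before a ribosome can translate. They were taken from a written list of assembly factors that holds no ribosomal proteins, and each had to reach at least 1 TPM (a share of all transcripts, corrected for transcript length) in at least 2 of the 4 samples. All 53 were found in the deposited table of 18567 gene IDs and all 53 passed this limit, so they are 53 of the 16817 genes tested. By the labels, RNA had been sequenced from Kasumi-1, an established cell line of acute myeloid leukemia (AML) that carries the RUNX1-RUNX1T1 fusion. The control group, NC, held 2 samples that the labels give as untreated with no shRNA, although the study's text speaks of a control hairpin, so the hairpin status of NC is uncertain. The other group, sh-ANP32B, held 2 samples with ANP32B, a histone-binding nuclear phosphoprotein, knocked down by a short hairpin RNA delivered by lentivirus. Which hairpin sequence each of them carried is not given in the sources used here, nor whether the replicates were separate cultures, so the p-values measure only the spread between these samples.

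Ribosome production begins in the nucleolus, where RNA polymerase I makes a long precursor RNA. Small nucleolar ribonucleoproteins (snoRNPs) modify it, a large particle called the small-subunit (SSU) processome folds and cleaves the part that becomes the small subunit, and separate sets of factors carry the small (pre-40S) and large (pre-60S) particles to the cytoplasm. Proliferating cells spend much of their transcription on this pathway, and the transcription factor MYC is a textbook activator of its genes. In AML the pathway is known for NPM1, a nucleolar chaperone that is often mutated in that disease. The question here was how the transcripts of these factors differ between Kasumi-1 cells with and without knockdown of ANP32B, a comparison through which the study searched for target genes of ANP32B.

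Transcripts of the assembly factors were lower in sh-ANP32B. The log2 fold change was negative for 51 of the 53 factors, with a median of -0.48, whereas the median over all genes tested was 0.08 and 42.1% of those genes were negative. In 40 factors, or 75.5%, both sh-ANP32B samples lay below both NC samples, which was the case for 21.4% of all genes tested. Summed over the 53 factors, NC reached 5033 and 5053 TPM (replicate 1, then replicate 2, as in all value pairs), compared with 3591 and 3496 TPM for sh-ANP32B. Both sh-ANP32B sums were below both NC sums, although with 2 samples a group the smallest two-sided p of an exact permutation test is 0.333. In a bulk sample a lower share of a transcript cannot be told apart from a lower share of the cells that make it.

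An adjusted p under 0.05 in limma was reached by 9 factors, or 17.0%, all of them lower, against 1.18% of all genes tested called lower. None of the factors was called higher at this threshold, against 2.14% of all genes, and after median-of-ratios scaling the shares of all genes called lower and higher were 1.71% and 1.37%. The 9 factors were NOP56, MRTO4, NOP16, NOLC1, RRS1, TCOF1, NCL, GNL3 and NPM3, with log2 fold changes from -1.07 to -0.75 and limma adjusted p from 0.0323 to 0.0455. The study's thresholds are a p under 0.05 with an absolute log2 fold change over 0.5, and its text does not say whether that p was adjusted. Applied here to unadjusted limma p on the log2(TPM + 1) scale, they were met by 25 lower factors, or 47.2%, against 6.55% of all genes tested. They were met by 0 higher factors, against 12.1% of all genes tested. An unadjusted p under 0.05 alone was found for 30 factors, all of them lower, against 8.72% of all genes tested for lower genes and 23.8% for either direction.

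The number of calls changed with the libraries in the fit and with the variance model. In limma fits without 1 library, where the lone sample was taken to vary like the other group, 1 factor was called without NC replicate 1 and 0 without NC replicate 2, where 13 had an unadjusted p under 0.05 in limma and were lower, against 3.54% of all genes. In contrast, 31 were called without sh-ANP32B replicate 1 and 32 without sh-ANP32B replicate 2. The share of all genes called lower moved in the same way, with 0.476%, 0.351%, 9.68% and 8.47% in these fits in the order given. By the study's thresholds the counts of lower factors were 13 without NC replicate 1, 13 without NC replicate 2, 29 without sh-ANP32B replicate 1 and 27 without sh-ANP32B replicate 2, against 3.84%, 3.54%, 8.79% and 8.10% of all genes. The median log2 fold change of the 53 factors stayed between -0.52 and -0.50 in these 4 fits. Without the abundance trend of the variance 0 factors and 0 other genes were called, and 27 factors were lower at an unadjusted p under 0.05 in limma, against 7.998% of all genes.

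**Figure D1:**
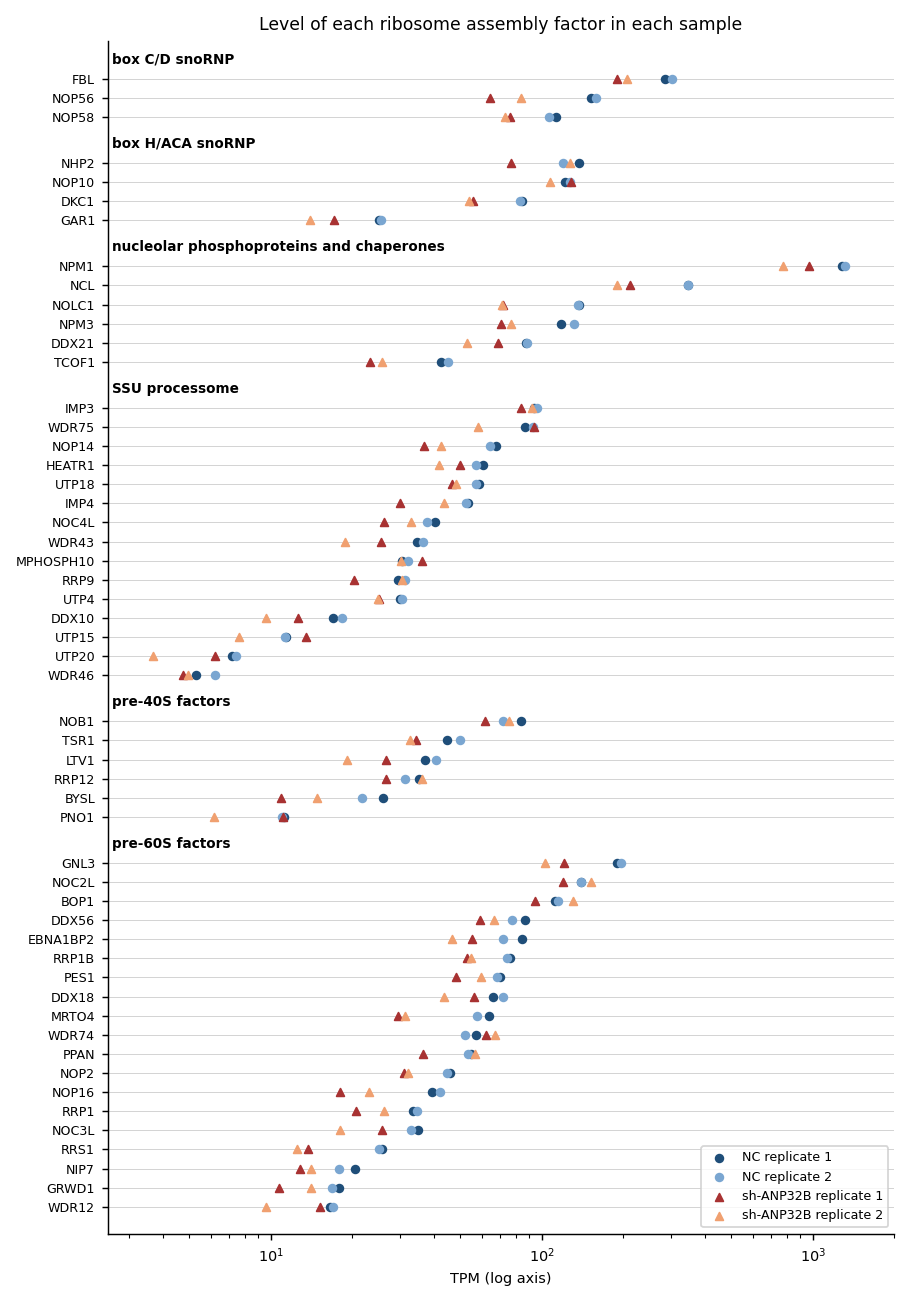
Level of each of the 53 ribosome assembly factors in TPM (log axis) in each of the 4 samples, grouped by role and ordered by the NC mean within each role. Circles are NC and triangles sh-ANP32B replicates; in 40 factors both triangles lie left of both circles, and NPM1 lies farthest right.

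In NC the levels of the factors spanned from 5.74 TPM for WDR46 to 1301 TPM for NPM1 (means of 2). The median factor lay at percentile 80.6 of the NC levels of all genes tested, and 49 of the 53 were above the median gene. NPM1 alone made up 25.5% and 26.1% of the summed TPM of the factors in NC and 27.0% and 22.3% in sh-ANP32B replicates 1 and 2. Without NPM1 the sums were 3750 and 3733 TPM in NC against 2620 and 2718 TPM in sh-ANP32B, so the lower total did not rest on that gene.

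The samples themselves were examined as follows. ANP32B measured 383.8 and 392 TPM in NC against 51.8 and 41.2 TPM after knockdown (log2 fold change -3.04, limma adjusted p = 0.00516), in the direction of the labels. Of 7 markers chosen for Kasumi-1, RUNX1T1, KIT, CD33, SPI1 and PTPRC were found, with summed levels of 451 and 434 TPM in NC, against 608 and 609.8 TPM in sh-ANP32B. Most of this sum came from SPI1 and PTPRC, which are not particular to this line, whereas RUNX1T1 measured 17.6 and 15.6 TPM in NC and KIT 1.55 and 2.31 TPM. In all 5 markers both sh-ANP32B samples were above both NC samples, and 2 of them, RUNX1T1 and PTPRC, met the study's thresholds. CD34 and MPO, both usual in this line, had no row in the table used here, and KIT lay near the limit of 1 TPM. The identity of the line thus rests on the labels, and these markers leave it uncertain. Of 20 markers of T, B, erythroid, epithelial and fibroblast cells 3 had a row, all from the B-cell list, and these summed to 10.5 and 11.4 TPM in NC, against 4.94 and 7.96 TPM in sh-ANP32B. The part of these marker differences in the results was not tested. Mitochondrial transcripts made up 12.9% and 13.1% of NC but 11.4% and 8.43% of sh-ANP32B. With them left out 11 factors were called lower, against 1.32% of all genes, and the median log2 fold change was -0.53.

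The sh-ANP32B replicates differed from each other along base composition. Across the 53 factors the log2 difference of sh-ANP32B replicate 2 from replicate 1 rose with the GC content of the longest transcript (Spearman rho 0.863, Pearson r 0.842), and across the 15427 tested genes with a GC value rho was 0.577. These are correlations across genes of a single pair of libraries, given as a description. Among the 27 factors with a GC content up to 49.2%, replicate 2 was above replicate 1 in 3, whereas it was above in 25 of the 26 factors with a higher GC content. The median log2 fold change was -0.53 in the former and -0.43 in the latter. After a GC correction 31 factors were called lower, against 6.57% of the 15427 genes, and the median log2 fold change was -0.46.

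**Figure D2:**
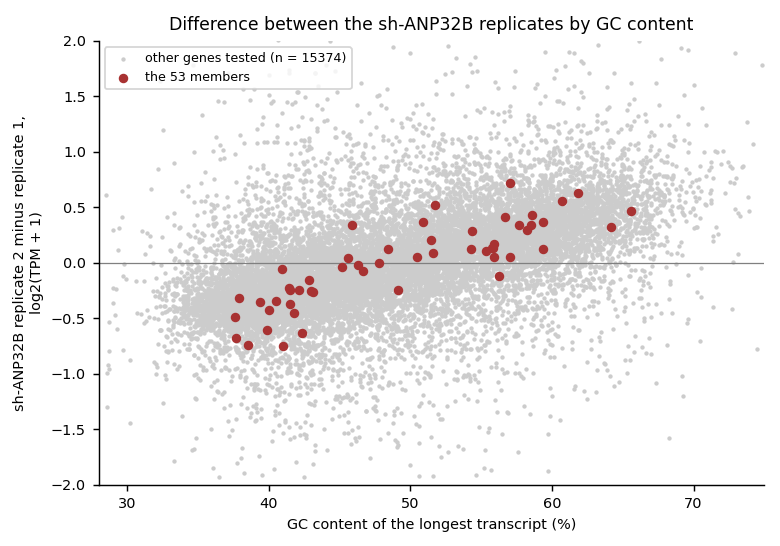
Difference between sh-ANP32B replicates 2 and 1 in log2(TPM + 1) against GC content (%), measured in the longest transcript, with 1 point per gene tested and the 53 assembly factors in red; points beyond the vertical range are not drawn. The factors run from lower in replicate 2 at low GC content to higher at high GC content (rho 0.863).

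Box C/D snoRNPs guide the 2′-O-methylation of ribosomal RNA. Their core proteins in this list are FBL (fibrillarin), the methyltransferase, and the paired scaffold proteins NOP56 and NOP58. NOP56 (ENSG00000101361, chr20:2652593-2658393, plus strand of hg38 in GENCODE v44) fell the most of all 53 factors. It measured 152 and 158 TPM in NC against 64.6 and 83.7 TPM after knockdown. The groups did not overlap, the sh-ANP32B mean was 47.7% of the NC mean, and limma gave a log2 fold change of -1.07 (SE 0.160, adjusted p = 0.0354).

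FBL measured 286 and 301 TPM in NC against 190.1 and 207 TPM after knockdown (log2 fold change -0.56, limma adjusted p = 0.0597). NOP58 measured 113 and 107 TPM in NC against 76.4 and 73.3 TPM after knockdown (log2 fold change -0.54, limma adjusted p = 0.0704). In both genes the groups did not overlap, and both met the study's thresholds but not the adjusted one. Of 11 transcript ratios computed within pairs or complexes, 4 did not overlap between groups and 7 did. None was tested, since with 2 samples a group the smallest two-sided p of an exact permutation test is 0.333. Groups without overlap were frequent, as among all 16817 genes tested they were apart in 3601 with sh-ANP32B lower and in 5579 with it higher. The share for ratios of other gene pairs was not computed, so the ratios are given as a description. The ratio of NOP56 to NOP58 transcripts was 1.35 and 1.48 in NC and 0.845 and 1.14 in sh-ANP32B, and that of NOP56 to FBL was 0.533 and 0.525 in NC and 0.340 and 0.405 in sh-ANP32B. Neither of these ratios overlapped between groups.

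Box H/ACA snoRNPs guide the change of uridine to pseudouridine. Of their 4 core proteins 0 had an adjusted p under 0.05, and 2 met the study's thresholds. DKC1 (dyskerin), the pseudouridine synthase that is also part of telomerase, measured 84.4 and 82.7 TPM in NC against 55.5 and 54.0 TPM after knockdown (log2 fold change -0.60, SE 0.130, limma adjusted p = 0.0589). GAR1, which binds the catalytic protein, measured 25.0 and 25.4 TPM in NC against 17.0 and 13.97 TPM after knockdown (log2 fold change -0.67, SE 0.176, limma adjusted p = 0.0847). For both genes the groups were apart.

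The remaining core proteins of this class behaved differently in the samples. NHP2, which binds the guide RNA, measured 137 and 119 TPM in NC, but 77.0 TPM in sh-ANP32B replicate 1 and 127 TPM in replicate 2. The replicates of sh-ANP32B thus lay on both sides of NC replicate 2 (log2 fold change -0.36, SE 0.238, limma adjusted p = 0.402). Its transcript had a GC content of 57.1%, and like most factors over the median GC content it was higher in replicate 2. NOP10, the smallest of the core proteins, measured 121 and 127 TPM in NC against 128 and 107 TPM after knockdown, and the groups overlapped (log2 fold change -0.08, SE 0.142, limma adjusted p = 0.785). The ratio of NOP10 to DKC1 transcripts was 1.44 and 1.54 in NC and 2.31 and 1.99 in sh-ANP32B, without overlap. The ratio of NHP2 to DKC1, at 1.62 and 1.44 in NC and 1.39 and 2.36 in sh-ANP32B, and that of GAR1 to DKC1, at 0.297 and 0.307 in NC and 0.307 and 0.259 in sh-ANP32B, overlapped.

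The nucleolar phosphoproteins and chaperones work on nascent ribosomal RNA or beside RNA polymerase I. In all 6 both sh-ANP32B samples lay below both NC samples, against 21.4% of all genes tested. All 6 met the study's thresholds, against 6.55% of all genes tested for lower genes. An adjusted p under 0.05 in limma was reached by 4, or 66.7%, against 1.18% of all genes tested called lower. NOLC1 (ENSG00000166197, chr10:102152176-102163871, plus strand) is a phosphoprotein that binds snoRNPs and RNA polymerase I. It measured 137 and 136 TPM in NC against 71.6 and 71.6 TPM after knockdown. Its replicates differed little in either group, its log2 fold change was -0.92 (SE 0.124), and its limma adjusted p = 0.0323 was the smallest among the 53 factors.

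TCOF1 (treacle), the relative of NOLC1 that is mutated in Treacher Collins syndrome, measured 42.4 and 44.9 TPM in NC against 23.3 and 25.7 TPM after knockdown (log2 fold change -0.81, SE 0.151, limma adjusted p = 0.0455). NCL (nucleolin), an abundant RNA-binding protein of the nucleolus, had 347 TPM in both NC replicates and 212 and 189 TPM in sh-ANP32B (log2 fold change -0.79, SE 0.124, limma adjusted p = 0.0391). NPM3, a nucleoplasmin-family partner of NPM1, measured 118 and 131 TPM in NC against 70.4 and 77.2 TPM after knockdown (log2 fold change -0.75, SE 0.136, limma adjusted p = 0.0447). In these genes sh-ANP32B stood at between 56.1% and 59.3% of the NC mean.

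NPM1, the most abundant factor, measured 1283 and 1319.7 TPM in NC against 970.8 and 778 TPM after knockdown. The groups were apart (log2 fold change -0.58, SE 0.146, limma adjusted p = 0.0785). The annotation names 49 pseudogenes of NPM1, of which 3 were in the table at up to 32.001 TPM in NC, against 20.5 TPM in sh-ANP32B, so reads may be shared and its level is uncertain. DDX21, an RNA helicase of the nucleolus, measured 87.6 and 88.0 TPM in NC against 69.2 and 53.1 TPM after knockdown (log2 fold change -0.53, SE 0.164, limma adjusted p = 0.121).

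**Figure D3:**
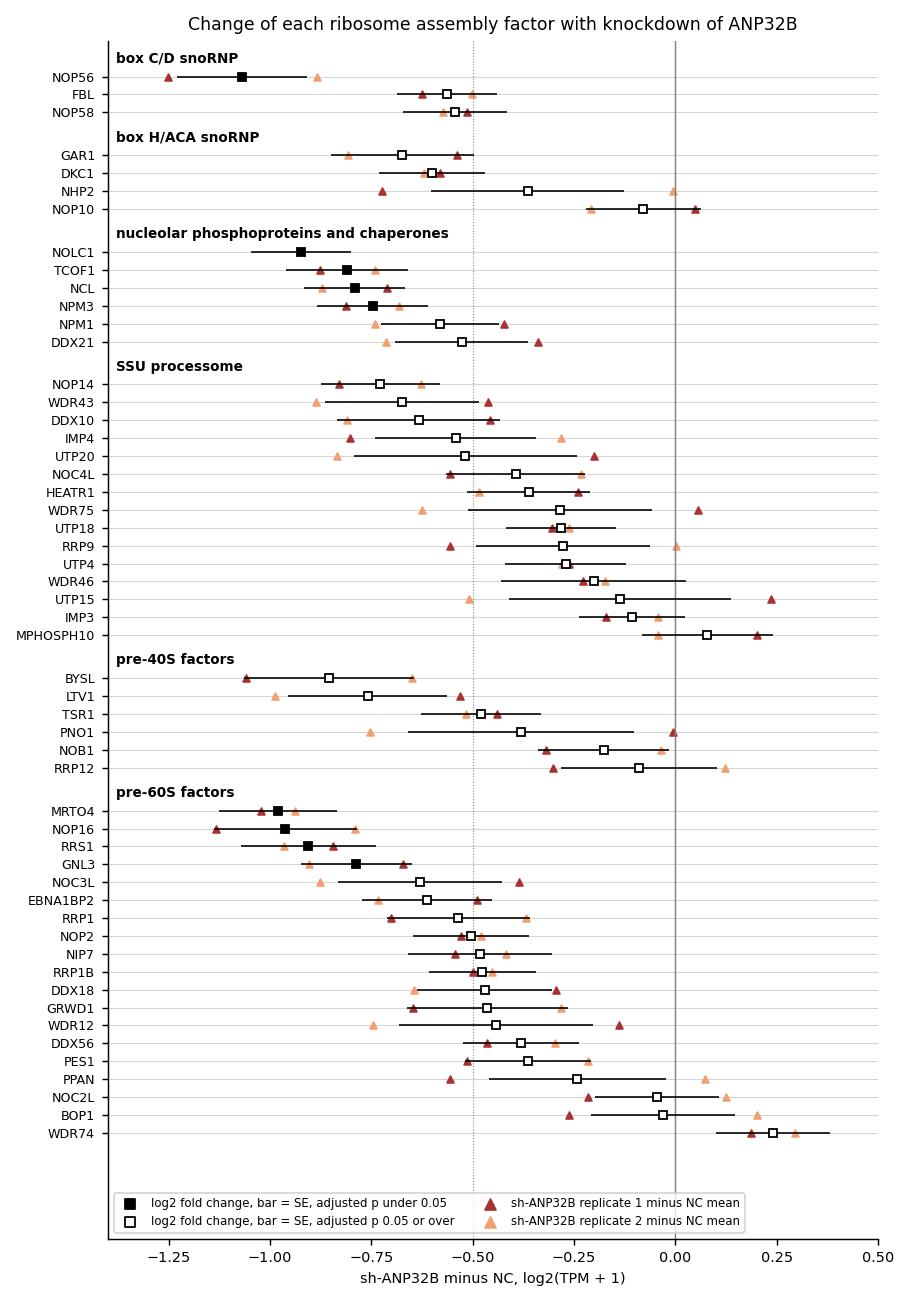
Change of each factor with knockdown of ANP32B in log2(TPM + 1), grouped by role and ordered by fold change. Squares are the limma log2 fold change with its standard error, filled where the adjusted p was under 0.05, triangles are each sh-ANP32B replicate minus the NC mean, and the dotted line is at -0.5; 51 squares lie left of 0 and 9 are filled.

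The SSU processome assembles on the precursor RNA with the U3 snoRNA. Of its 15 members 14, or 93.3%, had a negative log2 fold change, against 42.1% of all genes tested, and the median was -0.28. In 11, or 73.3%, the groups were apart with sh-ANP32B lower, against 21.4% of all genes tested. An adjusted p under 0.05 in limma was reached by 0, where 1.18% of all genes tested were called lower. The study's thresholds were met by 4, or 26.7%, against 6.55% of all genes tested for lower genes. NOP14 (ENSG00000087269, chr4:2937933-2963406, minus strand), a late processome protein, had the lowest log2 fold change of the class, with 67.5 and 64.3 TPM in NC against 36.6 and 42.3 TPM after knockdown (log2 fold change -0.73, SE 0.147, limma adjusted p = 0.0526). This call lay at the threshold, since NOP14 passed it after median-of-ratios scaling (limma adjusted p = 0.0463) and after GC correction (limma adjusted p = 0.00871). An antisense RNA of NOP14 overlaps its exons, and since no source states a strand setting for the counting, its value is uncertain.

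WDR43, a subunit of the UTP-A subcomplex that binds the precursor first, measured 34.7 and 36.5 TPM in NC against 25.6 and 18.8 TPM after knockdown (log2 fold change -0.67, limma adjusted p = 0.1003). DDX10, a helicase of the processome, measured 16.9 and 18.3 TPM in NC against 12.5 and 9.62 TPM after knockdown (log2 fold change -0.63, limma adjusted p = 0.124). IMP4, which helps U3 pair with the precursor, measured 53.6 and 52.7 TPM in NC against 30.03 and 43.5 TPM after knockdown (log2 fold change -0.54, limma adjusted p = 0.168). These and NOP14 were the processome members past the study's thresholds, and in each the groups were apart.

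The other UTP-A members HEATR1, UTP4, UTP15 and WDR75 had log2 fold changes of -0.36, -0.27, -0.14 and -0.28, with limma adjusted p from 0.212 to 0.814. WDR75 had 86.9 and 92.8 TPM in NC but 93.4 TPM in sh-ANP32B replicate 1 and 57.9 TPM in replicate 2, and UTP15 had 11.3 TPM in both NC replicates but 13.5 and 7.64 TPM in sh-ANP32B. In these a sh-ANP32B replicate lay on either side of NC. HEATR1 shares exonic sequence on the other strand with LGALS8, at 183 and 195 TPM in NC against 299 and 253 TPM after knockdown, and UTP15 does so with ANKRA2, at 30.0 and 31.8 TPM in NC against 54.4 and 40.8 TPM after knockdown.

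UTP20, a very large scaffold protein, was low at 7.21 and 7.43 TPM in NC against 6.24 and 3.66 TPM after knockdown (log2 fold change -0.52, SE 0.276, limma adjusted p = 0.308). NOC4L, the partner of NOP14, measured 40.3 and 37.6 TPM in NC against 26.2 and 33.0 TPM after knockdown (log2 fold change -0.39, limma adjusted p = 0.224). The U3-binding protein RRP9 and the UTP-B subunit UTP18 had log2 fold changes of -0.28 and -0.28. WDR46, the least abundant factor, measured 5.27 and 6.21 TPM in NC against 4.74 and 4.96 TPM after knockdown (log2 fold change -0.20, limma adjusted p = 0.646).

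The most abundant processome transcript in NC was IMP3, a U3 partner of IMP4, with 93.3 and 95.8 TPM against 83.9 and 91.7 TPM in sh-ANP32B (log2 fold change -0.11, SE 0.130, limma adjusted p = 0.675). MPHOSPH10, which forms a unit with IMP3 and IMP4, was the only member of this class with a positive log2 fold change, with 30.4 and 32.2 TPM in NC against 36.1 and 30.3 TPM after knockdown (log2 fold change 0.08, SE 0.161, limma adjusted p = 0.819). The groups overlapped in MPHOSPH10, and after median-of-ratios scaling its log2 fold change was -0.01. The members of this unit thus had fold changes of -0.54, -0.11 and 0.08, and the differences among them were not tested.

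Pre-40S factors escort and finish the small subunit. Of 6 factors 0 had an adjusted p under 0.05 in limma, where 1.18% of all genes tested were called lower. The study's thresholds were met by 2, or 33.3%, against 6.55% of all genes tested for lower genes. The median log2 fold change was -0.43. BYSL (bystin), needed for the processing of the small-subunit RNA, measured 25.95 and 21.8 TPM in NC against 10.9 and 14.8 TPM after knockdown (log2 fold change -0.85, SE 0.210, limma adjusted p = 0.0752). LTV1, an export and maturation factor, measured 37.1 and 40.7 TPM in NC against 26.6 and 19.1 TPM after knockdown (log2 fold change -0.76, SE 0.196, limma adjusted p = 0.0831). Both genes had groups apart.

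TSR1, a GTPase-like factor of the late particle, measured 44.6 and 49.7 TPM in NC against 34.4 and 32.6 TPM after knockdown (log2 fold change -0.48, limma adjusted p = 0.120). PNO1, which works with NOB1, measured 11.2 and 11.0 TPM in NC, but 11.1 TPM in sh-ANP32B replicate 1 and 6.19 TPM in replicate 2 (log2 fold change -0.38, limma adjusted p = 0.457). NOB1, the endonuclease that makes the final cut of the small-subunit RNA, was the most abundant of these factors, with 83.4 and 71.9 TPM in NC against 61.9 and 75.6 TPM after knockdown (log2 fold change -0.18, limma adjusted p = 0.557). RRP12, an export factor, measured 35.2 and 31.2 TPM in NC against 26.7 and 36.2 TPM after knockdown (log2 fold change -0.09, limma adjusted p = 0.826). The groups overlapped in the last 3 genes.

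Pre-60S factors build the large subunit. Of 19 factors 18, or 94.7%, had a negative log2 fold change, against 42.1% of all genes tested. In 15, or 78.9%, both sh-ANP32B samples lay below both NC samples, against 21.4% of all genes tested. The study's thresholds were met by 8, or 42.1%, against 6.55% of all genes tested for lower genes. An adjusted p under 0.05 in limma was reached by 4, or 21.1%, against 1.18% of all genes tested called lower. MRTO4 (ENSG00000053372, chr1:19251805-19260128, plus strand) is a placeholder for a stalk protein of the ribosome. It measured 63.7 and 57.7 TPM in NC against 29.3 and 31.2 TPM after knockdown, which was 49.8% of NC (log2 fold change -0.98, SE 0.145, limma adjusted p = 0.0351). NOP16 measured 39.4 and 41.9 TPM in NC against 17.98 and 23.1 TPM after knockdown (log2 fold change -0.96, SE 0.177, limma adjusted p = 0.0448). Its exons overlap HIGD2A on the other strand, at 131 and 149.8 TPM in NC against 124 and 184 TPM after knockdown, so the value of NOP16 is uncertain.

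RRS1, which brings the 5S RNA into the particle, measured 25.7 and 25.05 TPM in NC against 13.7 and 12.5 TPM after knockdown (log2 fold change -0.90, SE 0.166, limma adjusted p = 0.0448). GNL3 (nucleostemin), a GTPase known from stem cells and tumors, was the most abundant pre-60S transcript, with 190.1 and 196 TPM in NC against 121 and 103 TPM after knockdown (log2 fold change -0.79, SE 0.136, limma adjusted p = 0.0440). The exons of GNL3 overlap GLT8D1 on the other strand, whose level was 65.2 and 69.6 TPM in NC against 94.4 and 78.7 TPM after knockdown. In all 4 called factors of this class the groups were apart.

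Among the other pre-60S factors, NOC3L, EBNA1BP2, RRP1 and NOP2, a cytosine methyltransferase, met the study's thresholds with log2 fold changes of -0.63, -0.61, -0.54 and -0.50 and limma adjusted p from 0.0845 to 0.133. NIP7, RRP1B, the helicase DDX18, GRWD1 and the helicase DDX56 had log2 fold changes from -0.48 to -0.38, each with groups apart. NIP7, at 20.4 and 17.9 TPM in NC, shares exonic sequence on the other strand with COG8, at 41.1 and 41.4 TPM, so its value is uncertain. The same holds for TSR1 with SRR, WDR12 with CARF and NHP2 with RMND5B, and for HEATR1, UTP15 and GNL3 with the partners named beside them. RRP1 and its paralog RRP1B, both on chromosome 21, had log2 fold changes of -0.54 and -0.48. The ratio of RRP1 to RRP1B was 0.439 and 0.467 in NC and 0.388 and 0.478 in sh-ANP32B, and overlapped.

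PES1, BOP1 and WDR12 form the PeBoW complex, which processes the large-subunit RNA. PES1 measured 70.3 and 68.3 TPM in NC against 48.3 and 59.6 TPM after knockdown (log2 fold change -0.36, limma adjusted p = 0.218), and WDR12 measured 16.6 and 16.9 TPM in NC against 15.1 and 9.59 TPM after knockdown (log2 fold change -0.44, limma adjusted p = 0.316). BOP1 measured 112 and 115 TPM in NC, but 94.5 TPM in sh-ANP32B replicate 1 and 130.8 TPM in replicate 2 (log2 fold change -0.03, SE 0.177, limma adjusted p = 0.943). BOP1 had the highest GC content of the factors, 65.6%, and WDR12 one of 39.9%, and their sh-ANP32B replicates differed in opposite directions.

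PPAN, NOC2L and WDR74 completed this class. PPAN measured 54.6 and 53.5 TPM in NC against 36.4 and 56.9 TPM after knockdown, and it shares exonic sequence on the same strand with P2RY11, so its log2 fold change of -0.24 is uncertain. NOC2L measured 139.9 and 139 TPM in NC against 120.1 and 152 TPM after knockdown (log2 fold change -0.05, limma adjusted p = 0.896). WDR74, a partner of the ATPase NVL, was the only factor with both sh-ANP32B samples above both NC samples, with 56.95 and 52.0 TPM in NC against 62.1 and 66.9 TPM after knockdown (log2 fold change 0.24, SE 0.140, limma adjusted p = 0.349).

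Other genes of the pathway were taken from separate lists. Of 97 other ribosome assembly factors 96 were tested, with a median log2 fold change of -0.28. The fold change was negative for 78, or 81.25%, against 42.1% of all genes tested. In 55, or 57.3%, both sh-ANP32B samples lay below both NC samples, against 21.4% of all genes tested. An adjusted p under 0.05 in limma was reached by 1, or 1.04%, which was near the 1.18% of all genes called lower. This gene was LYAR, a nucleolar zinc-finger protein with 54.3 and 51.1 TPM in NC against 27.6 and 28.5 TPM after knockdown (log2 fold change -0.88, SE 0.143, limma adjusted p = 0.0399). In limma fits leaving out 1 library the number was 0 without NC replicate 1, 1 without NC replicate 2, 28 without sh-ANP32B replicate 1 and 22 without sh-ANP32B replicate 2, while the share of all genes called lower was 0.476%, 0.351%, 9.68% and 8.47%. The study's thresholds were met by 19 lower genes, or 19.8%, against 6.55% of all genes tested. They were met by 1 higher gene, or 1.04%, against 12.1% of all genes tested. The higher gene was RIOK3, a kinase of late small-subunit maturation named after its value was seen, with 61.7 and 62.0 TPM in NC against 102 and 81.2 TPM after knockdown (log2 fold change 0.55, limma adjusted p = 0.102).

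Of 16 subunits of the RNA exosome and related nucleases, which trim the precursor RNA, 11 had a negative log2 fold change, with a median of -0.22. An adjusted p under 0.05 was reached by 0 in limma, and an unadjusted p under 0.05 by 4, all of them lower. That is 25.0% of the list, against 8.72% of all genes tested for lower genes and 23.8% for either direction. The study's thresholds were met by 4 lower genes of the list, or 25.0%, against 6.55% of all genes tested. They were met by 0 higher genes of the list, against 12.1% of all genes tested. The 7 listed RNA polymerase I factors, initiation factors and the termination factor TTF1, had a median of -0.05, and 0 had an unadjusted p under 0.05 in limma. Their log2 fold changes were -0.45 for TTF1, -0.22 for UBTF, -0.05 for TAF1B, -0.05 for TAF1A, 0.01 for TAF1D, 0.19 for TAF1C and 0.26 for RRN3. Their limma adjusted p ran from 0.245 to 0.974.

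**Figure D4:**
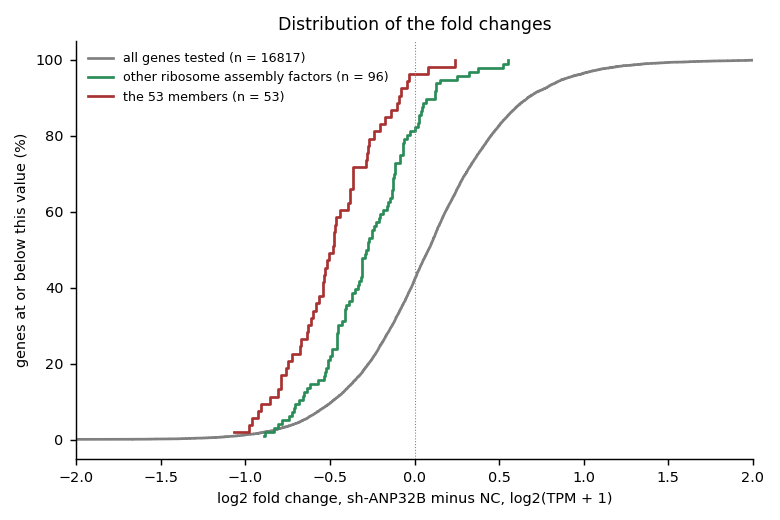
Cumulative share (%) of genes at or below each log2 fold change on the log2(TPM + 1) scale for the 53 members (red), the 96 other ribosome assembly factors (green) and all 16817 genes tested (grey); values beyond the axis are not drawn. The red curve lies left of the grey one, with medians of -0.48 and 0.08, and the green one has a median of -0.28.

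Position and snoRNA content were not used to choose the factors, and their shares over all genes were not computed. The genes lie on 19 chromosomes, with 9 on chromosome 2, and 8 of them hold 27 annotated snoRNA genes on the same strand, as is known for host genes whose introns release snoRNAs. The hosts were GNL3 with 6 snoRNAs, NOP56 with 5, NOP58 with 4, NCL with 3, WDR43 with 3, and DKC1, TSR1 and PPAN with 2 each. The median log2 fold change was -0.64 for the 8 hosts and -0.47 for the 45 other factors, with no test. Of the 8 hosts 3 were among the 9 called factors.

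The promoters, read as 250 bases before to 50 bases after the start site from RefSeq (GRCh38.p14), were searched for CACGTG, the E-box that MYC with its partner MAX is known to bind. The motif reads the same on both strands, and it does not overlap the other motif searched. A promoter was found for 44 of the 53 factors, and 18 of them, or 40.9%, held the motif. The share was 7.43% of 27305 promoters, 10.7% of the 9959 promoters of genes tested and 29.4% of the promoters of 85 other ribosome assembly factors. CTCGAG, a palindrome of the same base composition chosen after the first search, was in 6.82% of the promoters of the factors and 5.29% of those of genes tested. Of 21 matches, 18 began within 100 bases of the start site.

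The following stretches of 30 bases show the match in capitals and its surroundings, 5′ to 3′ on the strand of the gene. They belong to the 5 factors with the lowest fold changes among those past the study's thresholds that hold the motif, and to NOP10, which holds 2 matches and had a log2 fold change of -0.08. All are from GRCh38.p14, at chr1:19251807-19251836 (plus strand) for MRTO4, chr6:41921515-41921544 (plus) for BYSL, chr6:143843354-143843383 (plus) for LTV1, chr4:2963374-2963403 (minus) for NOP14, chr2:28894658-28894687 (plus) for WDR43, and chr15:34343289-34343318 and chr15:34343130-34343159 (minus) for NOP10.
MRTO4: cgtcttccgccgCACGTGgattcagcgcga
BYSL: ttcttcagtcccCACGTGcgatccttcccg
LTV1: gtcctggggctgCACGTGtggtgaggccta
NOP14: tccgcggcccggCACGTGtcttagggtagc
WDR43: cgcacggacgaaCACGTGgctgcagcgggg
NOP10, upstream match: gtagggacactcCACGTGttttagcctgca
NOP10, match near the start site: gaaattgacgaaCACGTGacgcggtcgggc

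In MRTO4, BYSL, LTV1, NOP14 and WDR43 the first base of the match was at positions 15, 29, 29, 16 and 4 counted from 1 at the start site, just inside the transcribed part. In NOP10 the matches began at offsets of -170 and -11 from the start site. Fold changes of factors with and without the motif overlapped, and their difference was not tested. The median log2 fold change was -0.53 for the 18 factors with the motif and -0.47 for the 26 without it, and the ranges ran from -0.98 to -0.08 and from -1.07 to 0.24. Of the 9 called factors MRTO4 held the motif, NOP56, NOP16, NCL, GNL3 and NPM3 did not, and NOLC1, RRS1 and TCOF1 had no promoter in the table. A match is only a match of letters, so neither a match nor the lack of one shows whether MYC binds.

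**Figure D5:**
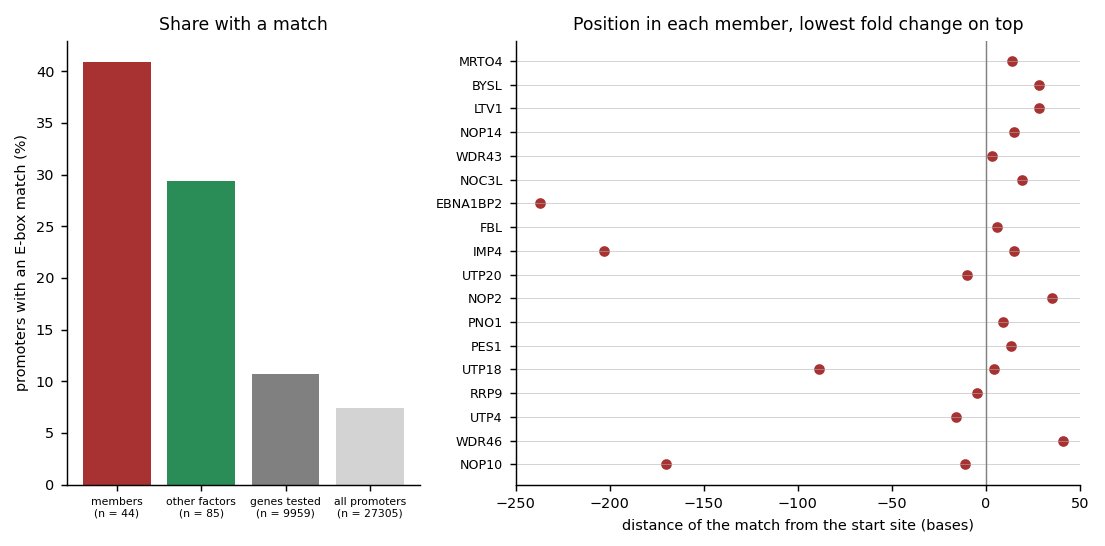
Left, share (%) of promoters with at least 1 E-box match among the members, the other ribosome assembly factors, the genes tested and all promoters of the RefSeq table. Right, distance of each match from the start site in bases for the 18 members that hold it, ordered by log2 fold change with MRTO4, the lowest, on top; most matches lie close to the start site.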

How the data were processed

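RNA of Kasumi-1 cells was sequenced in 2 NC and 2 sh-ANP32B samples. Per the labels and the study's methods, the authors aligned reads to hg38 with HISAT2 2.0.5. The deposited values are TPM, and they summed to between 997812 and 998314 per sample. The quantifier, its annotation, filters and strand handling are not given in the sources used here. TPM keeps no depth, so no counting interval was computed, and the study's DESeq2 test could not be run. Of 18567 gene IDs, 16986 were found in GENCODE v44 and 1581 were not. WDR46 lies where hg38 has alternative contigs, and its reads may be divided among IDs. No value above 0 was identical between replicates.

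Genes that reached 1 TPM in 2 or more samples were compared on log2(TPM + 1), which understates changes of low genes, by limma 3.58.1 with an abundance trend (R 4.3.3, two-sided, Benjamini-Hochberg over all 16817 genes). The script was tested on simulated data. Members, lists and tests were chosen with earlier results of these data known. Full values were planned for called members, for the most abundant member and the members with the lowest and highest fold change of each role, and other members are given for completeness. Alternatives were another pseudocount, filter, scaling, GC correction, variance model and replicate block, and leaving out each replicate.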

Additional observations from a re-analysis of the deposited data

How the results depend on the processing

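The median log2 fold change of the 53 factors ran from -0.57 to -0.46 over all alternatives. The number of factors called lower, 9 as reported, rose to 31 after correcting for GC content (6.57% of all genes called lower, against 1.18% as reported) and to 29 when the replicate block was added to that correction (5.86%), and was 0 without the abundance trend, where 27 were lower at an unadjusted p under 0.05 in limma. It ran from 0 to 32 when each replicate was left out (0.351% to 9.68% of all genes), where the count by the study's thresholds, 25 as reported, ran from 13 to 29 (3.54% to 8.79%). The other assembly factors called lower, 1 as reported, numbered 26 after correcting for GC content, 18 when the replicate block was added to it, 8 for the replicate block alone and 0 without the trend, and from 0 to 28 when each replicate was left out. The cause was not tested. All 9 factors called were kept with pseudocount 0.1 (9 called, 0.993% of all genes lower), without a filter (9, 1.02%), with 1 TPM required in all 4 samples (12, 2.06%), after median-of-ratios scaling (12, 1.71%), without mitochondrial genes (11, 1.32%) and with the replicate block (12, 2.92%), and in both fits with GC correction. No factor was called higher in the alternatives that kept all 4 samples. In these alternatives, from 0% (without the abundance trend) to 11.5% (GC correction) of all genes were called higher. The replicate numbers were not taken to pair the samples, since the study's methods name no pairing. Deviations of equally numbered samples from their group means were weakly and negatively related (Pearson r -0.0925, Spearman rho -0.168). TPM keeps no depth, so how far depth limits these values is unknown.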
